A study of Mus musculus with 49 samples.

Results

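The response of skin to imiquimod was set beside the response of colon to dextran sulfate sodium (DSS) in 20 of the 49 libraries of the series, the libraries of mice that were given phosphate-buffered saline (PBS) and no antibody. They were chosen by their treatment labels alone: 6 skin libraries with imiquimod (PBS-IMQ), 3 skin libraries with water (PBS-water), 6 colon libraries with DSS (PBS_DSS) and 5 colon libraries with water (PBS_water). For every gene the imiquimod change in skin was compared with the DSS change in colon through the difference between both changes, the interaction. All 4 groups were labelled as a DITRA model, named after deficiency of the interleukin-36 receptor antagonist, on a mixed strain of 75% C57BL/6NTac and 25% 129S6/SvEvTac. The water groups carry the same model label, and no mice without it enter the comparison. Alleles, age, dose, duration and the body site of the skin are not given in the sources used here. Nor is it given whether 2 libraries of a group came from separate animals, so the p-values measure the spread between libraries. That spread was estimated with the antibody groups included, from all 23 skin libraries, all 26 colon libraries or, for the interaction, all 49. The interaction fit gave each gene the same spread in both tissues, although colon libraries varied more than skin libraries. Interaction p-values can therefore be too small for genes that varied more in colon. Imiquimod was used in skin only and DSS in colon only, so that agent and tissue cannot be told apart in any difference described here.

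Imiquimod is an agonist of Toll-like receptor 7 that is put on mouse skin to produce a psoriasis-like inflammation with thickened epidermis, neutrophils and interleukin-17. DSS in drinking water damages the colonic epithelium, and bacteria then meet the tissue beneath it, which brings in neutrophils, monocytes and T cells. Interleukin-36 cytokines come mostly from epithelial cells and act through a receptor of the interleukin-1 family on NF-kB, and the antagonist that is deficient in DITRA normally holds that receptor in check.

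Libraries held 14.8 M to 19.1 M expected counts, and each correlated with the mean of its own group at Pearson r of 0.939 to 0.992 on log2 CPM, the counts scaled to a library total of 1e6. The tissue labels were checked against markers of each tissue. Krt5, a keratin of basal keratinocytes, stood at 4673 to 8369 CPM in skin, and Vil1, which encodes villin of the intestinal brush border, stood at 155 to 624 CPM in colon and at most at 0.117 CPM in skin. Values of 4 libraries stood apart from their groups and recur below. In colon DSS replicate 6 Krt5 reached 1499 CPM and Trp63, a transcription factor of squamous epithelium, 44.7 CPM, while the other 5 DSS libraries held at most 11.1 and 0.651 CPM. In colon water replicate 4 Hoxb13, a gene of the distal hindgut, was at 1.84 CPM against 364 to 400.2 CPM in the other 4 water libraries, and Cdx2 was at 187 CPM against 13.5 to 60.8 CPM. In colon DSS replicate 2 the T cell gene Cd3e was at 0.716 CPM against 5.80 to 14.8 CPM in the other DSS libraries. Krt25, a keratin of the hair root sheath, was at 0.789 CPM in skin water replicate 3 and at 80.0 and 45.3 CPM in the other 2 water libraries. In such bulk samples fewer cells of a type and less RNA per cell cannot be told apart.

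At the threshold used, about equally many genes were called in imiquimod skin and in DSS colon, and only part of them were shared. A gene is said to have risen or fallen where the adjusted p of edgeR's quasi-likelihood test was under 0.05, and changes are log2 fold changes of treated over water with their SE. In skin 2381 of 15345 genes tested rose (15.5%) and 2680 fell (17.5%), and in colon 2765 of 15731 rose (17.6%) and 2308 fell (14.7%). These near-equal totals depended on the setting. Where a change of at least 1 on the log2 scale was also required, 1554 genes passed in skin and 2222 in colon. Skin had 3 water libraries and colon 5. Among the 14477 genes tested in both tissues, 1732 were called in both, which is 37.0% of the 4681 genes called in skin and 36.9% of the 4692 called in colon. Of these 1732 genes 1283 moved in the same direction (74.1%), against 58.1% of all genes tested in both. Across all 14477 genes the changes in skin and colon correlated at Pearson r of 0.30 and Spearman rho of 0.24, a description across genes, which are not independent replicates. The skin and colon contrasts share no library. The interaction passed for 3523 genes (24.3%), 1423 with the higher change in skin and 2100 with the higher change in colon.

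Each gene was placed in a class by the calls. The largest class with a call in both tissues was that of 723 genes that rose in both (4.99%), with a median change of 0.82 in skin and 1.38 in colon. The change was larger in colon for 552 of them, and of the 204 that also passed the interaction 192 had the larger change in colon. Lower in both were 560 genes (3.87%), with medians of -0.65 and -0.61 and only 22 past the interaction. Opposite directions were found for 449 genes that also passed the interaction: 324 fell in skin and rose in colon (2.24%), and 125 rose in skin and fell in colon (0.863%). A gene counted as changed in 1 tissue only where it was called there, was not called in the other and passed the interaction. By that rule 583 genes rose (4.03%) and 492 fell (3.4%) in skin only, and 998 rose (6.89%) and 481 fell (3.32%) in colon only. Only 36.5% of the 2949 genes called in skin alone and 49.97% of the 2960 called in colon alone met the interaction requirement. The remaining 3355 genes with a single call are undecided. The percentages given for the classes are the background for the counts of list members below.

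**Figure D1:**
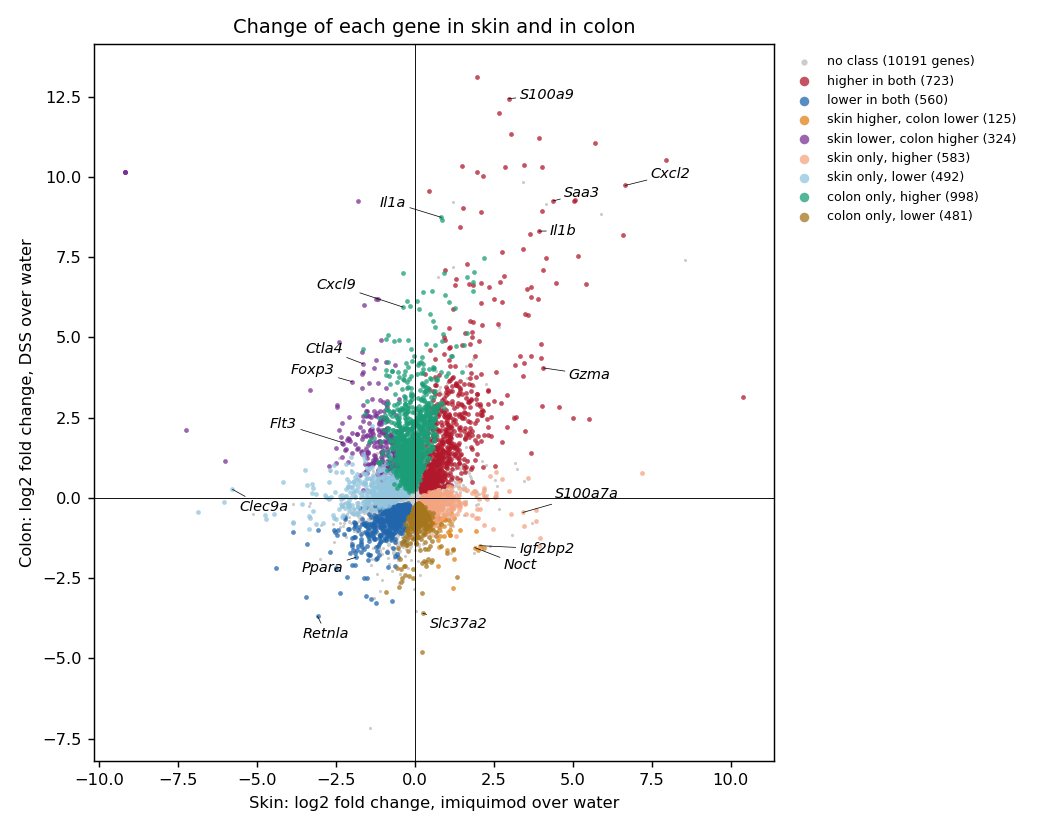
Change of each of the 14477 genes tested in both tissues, with the log2 fold change of imiquimod over water in skin on the x axis and that of DSS over water in colon on the y axis, coloured by class. Genes higher in both fill the upper right and reach further along the colon axis, and the genes lower in skin and higher in colon (324) outnumber those with the opposite pattern (125).

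The number of genes in each class depended on single libraries. Without skin water replicate 3, 1 of only 3 skin controls, the skin calls dropped from 5061 to 2902, the interaction calls from 3523 to 2340 and the genes higher in skin and lower in colon from 125 to 58. Without colon DSS replicate 2 that last class held 190 genes. Leaving out both colon DSS replicate 6 and colon water replicate 4, which was chosen after their values were seen, left 671 genes higher in both, 451 lower in both, 267 lower in skin and higher in colon and 90 with the opposite pattern. Under none of the 30 alternatives tried did a member of a class move to the class of the opposite direction.

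The genes that rose in both tissues were led by those of neutrophils and of the alarm signals that call them. Among 7 neutrophil chemokine and granulocyte growth factor genes tested in both, 6 rose in both, with a median change of 5.07 in skin and 9.29 in colon, where all genes had medians of -0.02 and -0.02. Of 16 neutrophil markers 14 rose in both and Il1r2 rose in colon only. The summed level of the 19 listed neutrophil genes was 517 to 2747 CPM in water skin and 8498 to 16831 CPM with imiquimod. In colon it was 20.9 to 95.2 CPM with water and 322 to 3908 CPM with DSS. In both tissues the treated libraries all lay above the water libraries, and water skin already held more of these transcripts than water colon, in large part S100a8 and S100a9. With imiquimod too S100a9, which keratinocytes can also make, was a large part of the skin sum. That sum is therefore not a measure of neutrophils alone. Ly6g, a surface gene that defines mouse neutrophils, did not follow the sums. It was at 0 CPM in water skin and at most at 0.490 CPM with imiquimod, and in colon the water range of 0.566 to 77.8 CPM (median 54.3) overlapped the DSS range of 43.3 to 179 CPM (median 71.6). The 0.566 CPM was that of water replicate 4, and the other water colon libraries held at least 45.0 CPM. Ly6g thus made up much of the water colon sum, whose median was 78.0 CPM. Which colon cells held Ly6g was not tested, so that sum too cannot be read as neutrophils alone. Elane, a protease of immature neutrophils, was at 0 in all water colon libraries.

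Cxcl2, a chemokine that draws neutrophils through the receptor CXCR2, was near absence in both water groups. Its promoter is shown because the chemokine rose in both tissues and because it holds a match to an NF-kB type motif. The search used the letters GGANTTTCC and GGGNNTTCC for NF-kB and GAAANNGAA for the interferon-stimulated response element, on both strands, in the stretch from 250 bases before to 50 bases after each gene's start in RefSeq (GRCm38.p6). Capitals mark the match, and the 250 bases before the start are printed 5′ to 3′ on the strand of the gene, from chr5:90903649-90903898 on the plus strand.
Cxcl2: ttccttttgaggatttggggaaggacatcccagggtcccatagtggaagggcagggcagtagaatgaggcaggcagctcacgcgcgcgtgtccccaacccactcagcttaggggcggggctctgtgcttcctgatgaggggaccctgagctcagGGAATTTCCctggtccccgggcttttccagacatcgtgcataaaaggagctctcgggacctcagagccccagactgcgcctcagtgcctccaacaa
The match begins 96 bases before the start. Such a match is a description of letters. It was found in 8.39% of the promoters of all genes tested in both tissues and in 3 of 5 neutrophil chemokine promoters, 8 of 14 promoters of NF-kB and STAT3 feedback regulators and 9.30% of the promoters of genes higher in both, against 11.4% of those higher in skin only and 10.2% of those higher in colon only.

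Cxcl2 stood at 0.872, 0.0662 and 0 CPM in the water skin libraries and at 8.32 to 103 CPM (median 24.4) with imiquimod. In colon it stood at 0, 0.169, 0.0534, 0 and 0 CPM with water and at 3.71 to 173 CPM (median 24.8) with DSS. The groups did not overlap in either tissue, and the treated groups reached about the same levels. Its change was 6.66 ± 1.61 in skin (adjusted p = 0.00397) and 9.73 ± 1.40 in colon (adjusted p = 1.30e-05), and the difference between the changes did not pass (-3.01 ± 2.74, adjusted p = 0.440). Only 2 of the 5 colon water libraries held any count, so the size of the colon change depends on the default prior count of edgeR's fit.

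Il1b, the gene of interleukin-1 beta, rose in both tissues and more in colon. It was at 4.58, 2.18 and 5.24 CPM in water skin and at 34.4 to 128 CPM (median 54.3) with imiquimod. Colon values were 1.17, 1.07, 0.534, 1.70 and 0.562 CPM with water and 73.4 to 1007 CPM (median 123) with DSS. No treated library overlapped a water library of its tissue, and DSS replicate 5 was the highest. The change was 3.94 ± 0.781 in skin (adjusted p = 0.00110) and 8.31 ± 1.005 in colon (adjusted p = 2.01e-06), with an interaction of -4.33 ± 1.15 (adjusted p = 0.00489).

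S100a8 and S100a9 encode the subunits of calprotectin, an antimicrobial protein of neutrophils that stressed keratinocytes also make. S100a9 was at 1527, 1027 and 218 CPM in water skin and at 5204 to 11157 CPM (median 6767) with imiquimod. It was at 0.0617, 0.225, 0.160, 0 and 0.125 CPM in water colon and at 62.7 to 1444 CPM (median 683) with DSS. The water levels of both tissues differed far more than the treated levels, and skin libraries with imiquimod remained above all colon libraries with DSS. Its change was 2.97 ± 0.578 in skin (adjusted p = 0.000973) and 12.43 ± 1.35 in colon (adjusted p = 9.33e-07), with an interaction of -9.41 ± 1.28 (adjusted p = 9.36e-07). S100a8 changed by 2.66 ± 0.547 and 11.998 ± 1.39 (interaction adjusted p = 1.95e-06), from at most 0.283 CPM in water colon.

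Lcn2, which encodes the iron-binding antimicrobial protein lipocalin-2, was also higher in water skin than in water colon. Unlike S100a9, its treated skin and colon libraries overlapped. Its values were 34.3, 16.7 and 20.2 CPM in water skin and 118 to 259 CPM (median 145) with imiquimod, and 1.36, 0.676, 0.961, 1.91 and 0.749 CPM in water colon and 35.3 to 548 CPM (median 193) with DSS. The groups of each tissue were separate. It rose by 2.75 ± 0.383 in skin (adjusted p = 9.88e-05) and 7.66 ± 0.806 in colon (adjusted p = 9.16e-07), and the interaction passed (adjusted p = 1.83e-05). Saa3, an acute-phase serum amyloid gene, rose by 4.38 ± 1.005 and 9.25 ± 1.11 with an interaction adjusted p of 0.00470. Of 13 antimicrobial genes tested in both tissues 5 rose in both, 1 rose in skin only and 2 in colon only, with medians of 2.66 and 7.19.

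Among the myeloid genes the interaction passed for some and not for others. Trem1, a receptor that amplifies neutrophil and monocyte activation, rose by 4.14 ± 0.959 in skin and 7.48 ± 0.995 in colon, and the interaction did not pass (-3.30, adjusted p = 0.109). Fcgr4, an activating receptor for the Fc part of immunoglobulin G, rose by 3.98 ± 0.532 in skin and 4.79 ± 0.560 in colon (interaction adjusted p = 0.486). Osm, the gene of oncostatin M, a cytokine of the interleukin-6 family made by myeloid cells, rose by 2.71 ± 0.667 and 6.72 ± 0.784, and here the interaction passed (-3.97, adjusted p = 0.00464). The interaction values of Trem1 and Osm were close, and their calls depended on the tool. That of Trem1 passed in DESeq2 (adjusted p = 0.0149), and that of Osm did not pass in limma (adjusted p = 0.0616). Of 19 monocyte and macrophage markers 11 rose in both and 6 in colon only, and without skin water replicate 1 the number that rose in both was 6.

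Ptgs2, the inducible cyclooxygenase of prostaglandin synthesis, rose in both tissues. It was at 0.981, 1.65 and 1.18 CPM in water skin and 7.86 to 47.4 CPM (median 16.2) with imiquimod, and at 7.10, 10.9, 6.68, 10.5 and 3.99 CPM in water colon and 30.2 to 561 CPM (median 92.8) with DSS. Treated and water libraries did not overlap in either tissue. The changes were 3.98 ± 1.02 (adjusted p = 0.00589) and 4.37 ± 0.686 (adjusted p = 3.68e-05), and the difference between them was -0.35 ± 1.17 (adjusted p = 0.857). Il33, an alarm cytokine stored in epithelial and stromal nuclei, rose by 2.93 ± 0.541 in skin and 2.21 ± 0.463 in colon, with a difference of 0.75 ± 0.669 (adjusted p = 0.428). Without colon DSS replicate 6 and water replicate 4 the Il33 change in colon was 1.44 and the difference 1.54 (adjusted p = 0.0678). Gzma, a granzyme of cytotoxic lymphocytes, rose by 4.07 ± 0.629 and 4.05 ± 1.02 with a difference of 0.03 ± 1.68 (adjusted p = 0.991), at no more than 6.39 CPM in any library. Without that pair of libraries the Gzma difference was -1.24 (adjusted p = 0.619). A p above the threshold does not show that the changes of these genes were equal.

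Feedback regulators of NF-kB and STAT3 rose in both tissues for 8 of 16 genes and in colon only for 4 (2 without skin water replicate 3), with medians of 0.60 and 1.15. Socs3, which limits STAT3 signalling by interleukin-6 family cytokines, stood at 23.7, 25.0 and 24.1 CPM in water skin and at 61.5 to 115 CPM (median 97.8) with imiquimod. It stood at 8.95, 8.90, 6.09, 7.28 and 7.80 CPM in water colon and at 74.1 to 288 CPM (median 152) with DSS. Neither tissue had overlapping groups. The change was 1.92 ± 0.369 in skin (adjusted p = 0.000905) and 4.42 ± 0.422 in colon (adjusted p = 4.78e-07), and the interaction passed (-2.46 ± 0.516, adjusted p = 0.000465). Matrix remodelling and wound genes rose in both for 12 of 20 members, and for 7, 7 and 6 without skin water replicate 1, 2 or 3, while 2 more rose in skin only and 6 in colon only.

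**Figure D2:**
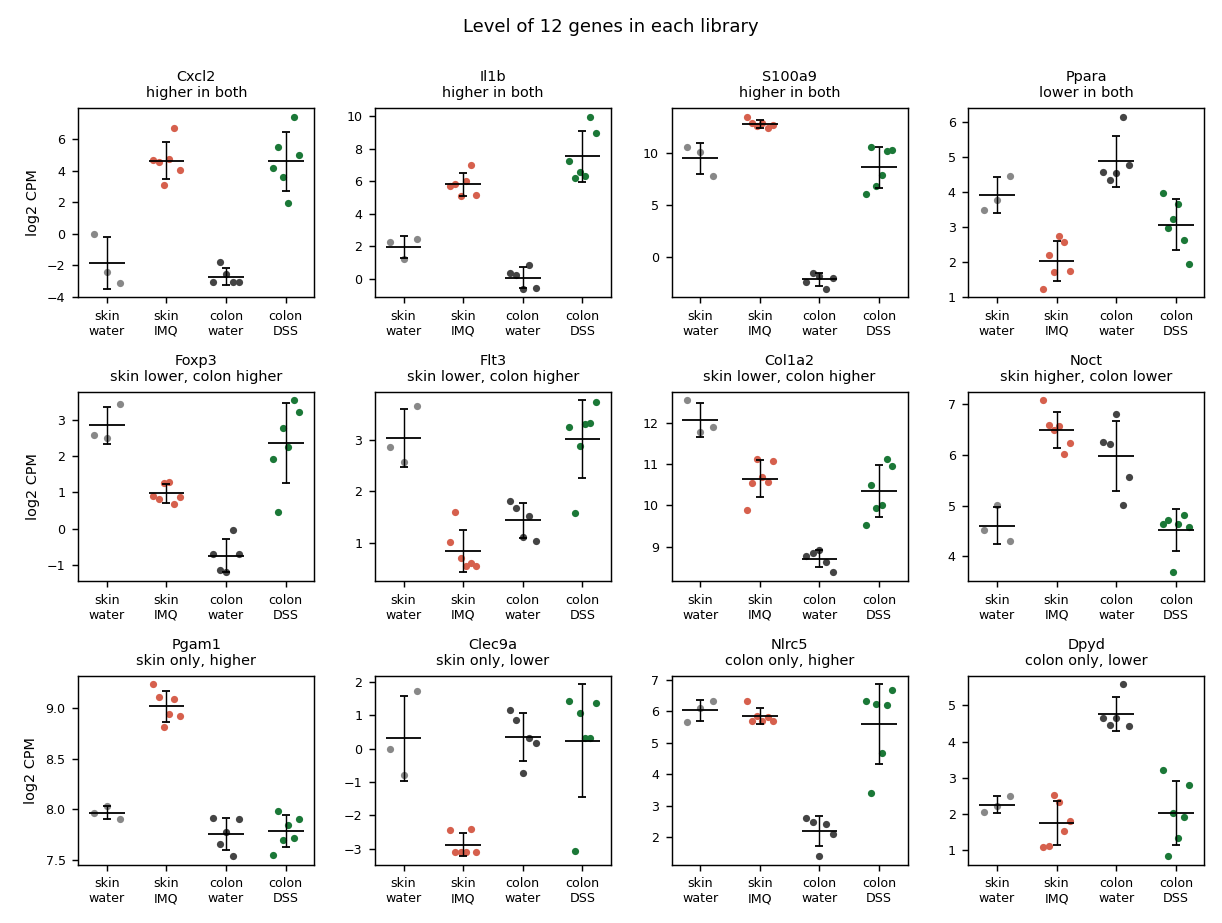
Log2 CPM of 12 genes in each of the 20 libraries; points are libraries, horizontal bars are group means and error bars are SDs (n = 3, 6, 5 and 6 from left to right). S100a9 differs most between the water groups of the 2 tissues, Foxp3, Flt3 and Col1a2 move down in skin and up in colon, and Noct moves the other way.

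Ppara, the nuclear receptor that drives fatty acid oxidation, fell by nearly the same amount in skin (-1.86 ± 0.413, adjusted p = 0.00232) and colon (-1.85 ± 0.331, adjusted p = 0.000162). Skin values were 10.95, 13.5 and 21.9 CPM with water and 2.24 to 6.61 CPM (median 3.82) with imiquimod, and colon values were 23.5, 20.05, 23.02, 70.3 and 27.1 CPM with water and 3.75 to 15.6 CPM (median 8.42) with DSS. All treated libraries lay below all water libraries of their tissue. The colon water value of 70.3 CPM belongs to replicate 4, and without that library and DSS replicate 6 the colon change was -1.20 (adjusted p = 0.00151).

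Ppargc1a, a coactivator that raises mitochondrial gene expression, fell by 1.505 on the log2 scale in skin (SE 0.345, adjusted p = 0.00291) and by 1.51 in colon (SE 0.320, adjusted p = 0.000888). Retnla, a secreted product of alternatively activated macrophages and epithelium, was at 38.0, 150.4 and 88.9 CPM in water skin and 3.80 to 18.5 CPM (median 11.1) with imiquimod, and at 16.8, 8.16, 5.55, 10.5 and 4.06 CPM in water colon and 0.179 to 1.80 CPM (median 0.369) with DSS. No library overlapped between the groups of a tissue. Its changes were -3.08 ± 0.677 (adjusted p = 0.00220) and -3.68 ± 0.842 (adjusted p = 0.00179). Npas2, a partner of the clock protein BMAL1, fell by 1.305 in skin and 1.06 in colon on the log2 scale, and Bhlhe40, a repressor within the clock, rose in skin only (1.57 ± 0.276, against 0.28 ± 0.189 in colon, interaction adjusted p = 0.00254). Over 18 clock genes 3 were lower in both (3.87% of all genes), 2 rose in skin only (4.03%) and 2 in colon only (6.89%). In skin 2 of the 18 rose and 5 fell, against 15.5% and 17.5% of all genes. In colon 4 rose and 5 fell, against 17.6% and 14.7%.

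Stem cell and Wnt target genes had similar medians in both tissues, -0.42 in skin and -0.44 in colon over 15 genes. Among them 4 fell in both and 1 rose in both. The interaction passed for 0 of them in edgeR, with 7 at an unadjusted p under 0.05, for 0 in DESeq2 and for 2 in limma. Tnfrsf19, a Wnt target gene of the tumour necrosis factor receptor family found in hair follicle and gut stem cells, is one of the 4. It was at 70.2, 69.9 and 70.6 CPM in water skin and 12.1 to 28.0 CPM (median 22.99) with imiquimod, and at 10.99, 8.16, 7.80, 15.6 and 6.05 CPM in water colon and 0.776 to 5.68 CPM (median 2.70) with DSS. It fell in both tissues, by 1.69 in skin (SE 0.264, adjusted p = 0.000228) and by 1.67 in colon (SE 0.373, adjusted p = 0.00146). The number of list members that fell in skin was 8, and 4 without skin water replicate 1. The number that fell in colon was 6 and dropped to 3 without DSS replicate 5, without DSS replicate 6 or without water replicate 5.

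T cell genes moved in opposite directions. Of 15 T and NK cell markers tested in both tissues 8 fell in skin and rose in colon, the background share of that class being 2.24%, and 2 granzyme genes rose in both. The median change was -0.90 in skin and 2.39 in colon. Only 16 of the 20 listed genes were found among the gene identifiers, and the others are missing from all counts of this list. Summed over these 16 genes the level was 48.8 to 70.6 CPM in water skin and 25.1 to 42.0 CPM with imiquimod. In colon it was 15.8 to 28.0 CPM with water and 19.6 to 191 CPM with DSS. The lowest DSS value was that of replicate 2, inside the range of the water libraries, and without the 2 colon libraries DSS replicate 6 and water replicate 4 the number with opposite directions was again 8.

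Foxp3 encodes the transcription factor of regulatory T cells. Its level was 5.88, 5.56 and 10.8 CPM in water skin and 1.47 to 2.34 CPM (median 1.73) with imiquimod, and 0.494, 0.338, 0.320, 0.848 and 0.499 CPM in water colon and 1.25 to 11.5 CPM (median 5.70) with DSS. In skin all imiquimod libraries lay below the controls, and in colon all DSS libraries lay above them. Foxp3 fell by 1.98 in skin (SE 0.304, adjusted p = 0.000209) and rose by 3.62 ± 0.456 in colon (adjusted p = 2.87e-06), with an interaction of -5.57 ± 0.556 (adjusted p = 4.35e-09). Ctla4, an inhibitory receptor that regulatory T cells carry, changed by -1.64 ± 0.362 in skin and 4.18 ± 0.559 in colon (interaction adjusted p = 9.77e-08). Cd3e, a chain of the T cell receptor complex common to all T cells, changed by -1.73 ± 0.301 and 2.204 ± 0.442 (interaction adjusted p = 1.95e-06). Its level in DSS replicate 2 lay below all 5 water libraries, and the other DSS libraries lay above them.

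Dendritic cell genes fell in skin for 10 of 15 markers and rose in colon for 6 of 14. In the classes 6 of 14 fell in skin only, 2 moved in opposite directions and 3 rose in colon only, with medians of -1.34 and 0.90. Without skin water replicate 3, or without colon DSS replicate 6 and water replicate 4, 1 rose in colon only. The summed level of the 15 genes was 273 to 396 CPM in water skin and 155 to 211 CPM with imiquimod. In colon it was 1302 to 1507 CPM with water and 627 to 1453 CPM with DSS, so the sum did not follow the members that rose there, and the list holds Epcam, which gut epithelium also expresses. Flt3, the receptor that dendritic cell precursors need, was at 7.19, 5.82 and 12.5 CPM in water skin and 1.34 to 2.91 CPM (median 1.45) with imiquimod, and at 3.39, 3.10, 2.03, 2.76 and 1.93 CPM in water colon and 2.86 to 13.3 CPM (median 9.61) with DSS. Skin groups were separate, and in colon only DSS replicate 2, at 2.86 CPM, lay within the water range. The change was -2.29 ± 0.267 in skin (adjusted p = 3.33e-05) and 1.73 ± 0.305 in colon (adjusted p = 0.000141), with an interaction of -3.99 ± 0.420 (adjusted p = 1.45e-08). Itgax, which encodes the integrin CD11c of dendritic cells and some macrophages, changed by -1.18 ± 0.269 and 1.60 ± 0.351 (interaction adjusted p = 2.97e-05).

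Clec9a, the marker of cross-presenting dendritic cells, fell in skin only. Water skin held 0.872, 0.463 and 3.15 CPM, and 4 of 6 imiquimod libraries held no count, the other two 0.0678 and 0.0701 CPM. These are 79 counts in 3 libraries against 2 counts in 6, a ratio of pooled levels of 75.8 in favour of water with an exact 95% interval of 20.3 to 637 that covers counting error only. The adjusted p in skin was 0.000179. In colon Clec9a was at 0.481 to 2.10 CPM with water and 0 to 2.55 CPM (median 1.56) with DSS, overlapping groups whose change of 0.27 ± 0.518 did not pass (adjusted p = 0.734), and the interaction passed (adjusted p = 6.47e-05).

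Genes of antigen presentation on MHC class II showed the same signs with less support in skin. Cd74, the invariant chain that guides class II molecules, was at 434, 478 and 1005 CPM in water skin and 191 to 421 CPM (median 294) with imiquimod, and at 305, 316, 166, 287 and 274 CPM in water colon and 133 to 2437 CPM (median 1372) with DSS. The skin groups were just separate, and DSS replicate 2 lay below every colon control while the other DSS libraries held at least 799 CPM. Cd74 changed by -1.11 ± 0.310 in skin (adjusted p = 0.00990) and by 2.38 ± 0.516 in colon (adjusted p = 0.00111). Without skin water replicate 3 the skin change was -0.62 and did not pass (adjusted p = 0.180). Of the 19 interferon gamma and antigen presentation genes tested in both, 5 class II genes fell in skin and rose in colon, and 0 genes of the list were in that class without skin water replicate 3.

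Collagen and other fibroblast genes fell in skin for 12 of 18 members and rose in colon for 12 of 18, with 8 of them called in opposite directions. Their summed level was 18069 to 30223 CPM in water skin and 6058 to 14164 CPM with imiquimod, and 2986 to 5223 CPM in water colon and 6065 to 19253 CPM with DSS. Treated and control sums did not overlap in either tissue and treated skin and treated colon covered similar ranges. Without skin water replicate 1 the number that fell in skin was 6 and the number in opposite directions 3, and without DSS replicate 6 and water replicate 4 of colon the latter was 5.

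Col1a2, a chain of type I collagen, was at 5974, 3504 and 3822 CPM in water skin and 943 to 2249 CPM (median 1582) with imiquimod, and at 438, 456, 480.1, 398 and 331 CPM in water colon and 731 to 2245 CPM (median 1234) with DSS. The change was -1.41 ± 0.272 in skin (adjusted p = 0.000930) and 1.74 ± 0.306 in colon (adjusted p = 0.000141), with an interaction of -3.11 ± 0.418 (adjusted p = 7.83e-07). Igfbp5, a secreted binding protein for insulin-like growth factors, changed by -1.64 ± 0.293 and 3.92 ± 0.590 (interaction adjusted p = 1.57e-07). Mfap4, a protein of elastic fibres, changed by -2.32 ± 0.364 and 1.90 ± 0.375 (interaction adjusted p = 5.10e-07). For all 3 genes every imiquimod library lay below the skin controls and every DSS library above the colon controls.

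**Figure D3:**
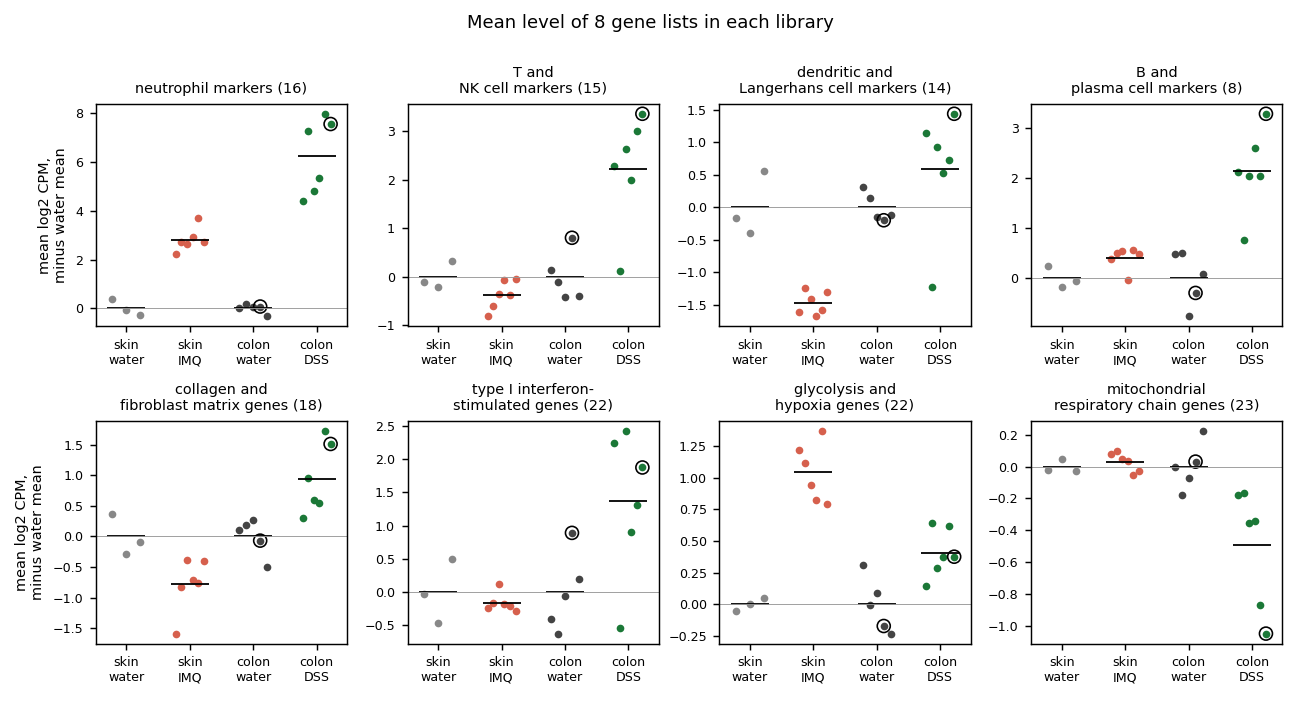
Mean log2 CPM of 8 gene lists in each library, minus the mean of the water libraries of the same tissue; the number of genes is given in brackets, bars are group means and rings mark colon DSS replicate 6 and colon water replicate 4. Dendritic cell markers lie at -1.67 to -1.24 in the 6 imiquimod libraries, and colon DSS replicate 2 lies lowest of the DSS group for T cell, dendritic, B cell and interferon-stimulated genes.

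The opposite pattern, higher in skin and lower in colon, was the smallest class and its changes were modest, with medians of 0.42 and -0.54. Noct encodes nocturnin, a rhythmic phosphatase that removes a phosphate from NADP cofactors. It stood at 22.7, 32.2 and 19.6 CPM in water skin and 64.5 to 135 CPM (median 92.2) with imiquimod, and at 76.2, 74.8, 111, 32.3 and 47.6 CPM in water colon and 12.7 to 27.9 CPM (median 24.9) with DSS. Groups were separate in both tissues. It changed by 1.90 ± 0.304 in skin (adjusted p = 0.000261) and -1.55 ± 0.288 in colon (adjusted p = 0.000247), with an interaction of 3.48 ± 0.448 (adjusted p = 5.10e-07). Vstm5, a membrane protein with an immunoglobulin-like domain, changed by 1.21 ± 0.238 and -1.62 ± 0.220 (interaction adjusted p = 1.41e-07). Arl4d, a small GTPase of the ARF-like family, changed by 1.03 ± 0.275 and -1.62 ± 0.302, and by -1.20 in colon without DSS replicate 6 and water replicate 4.

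Genes of the mitochondrial respiratory chain fell in colon for 17 of 23 members and in skin for 1, while 5 rose in skin. By class 9 fell in colon only and 4 rose in skin and fell in colon. The median change was 0.05 in skin and -0.45 in colon. This count rested on few libraries: the number that fell in colon was 5 without DSS replicate 5, 5 without DSS replicate 6, 6 without water replicate 5, 11 without water replicate 4, and 3 without both DSS replicate 6 and water replicate 4. The number that rose in skin was 2 to 10, and the number in opposite directions 1 to 8, when 1 library was left out, both highest without skin water replicate 2. The mean level of the list was lower than the water mean by 0.87 and 1.05 in DSS replicates 5 and 6 and by at most 0.35 in the other DSS libraries. Uqcrfs1, the iron-sulfur subunit of complex III, changed by 0.25 ± 0.0746 in skin (adjusted p = 0.0134) and -0.56 ± 0.171 in colon (adjusted p = 0.0154). Its skin call was lost without skin water replicate 1 (adjusted p = 0.0747) and its colon call without the pair of colon libraries (adjusted p = 0.0701).

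Genes of glycolysis and of the response to low oxygen rose mostly in skin. Of 22 genes 20 rose in skin and 7 in colon. Against a background of 4.03%, 9 of the 22 rose in skin only, while 7 rose in both and 1 passed the interaction without a call in either tissue. The median change was 1.06 in skin and 0.26 in colon, and the colon count was 3 without water replicate 5 and 4 without water replicate 2 or 4.

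Pgam1, a glycolytic phosphoglycerate mutase, was at 249, 261 and 239 CPM in water skin and 451 to 603 CPM (median 517) with imiquimod. Its colon values were 241, 202, 218, 185 and 239 CPM with water and 186 to 253 CPM (median 219.6) with DSS. The skin groups were separate and the colon groups overlapped. It rose by 1.06 ± 0.140 in skin (adjusted p = 6.92e-05) against 0.03 ± 0.0890 in colon (adjusted p = 0.857), with an interaction of 1.06 ± 0.161 (adjusted p = 5.35e-06). Pfkl, a phosphofructokinase, changed by 1.08 ± 0.179 and -0.20 ± 0.123 (interaction adjusted p = 2.52e-05). Car9, a carbonic anhydrase induced by hypoxia, changed by 1.94 ± 0.395 and 0.10 ± 0.258 (interaction adjusted p = 0.00348), although water colon held 46.4 to 53.4 CPM and imiquimod skin only 3.41 to 12.7 CPM. Gjb1, the gap junction protein connexin 32, changed by 1.99 ± 0.376 in skin and -0.33 ± 0.270 in colon (interaction adjusted p = 0.000336).

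Enzymes of lipid synthesis were among the genes that fell in skin only. Elovl6, which lengthens saturated fatty acids, was at 449, 614 and 1141 CPM in water skin and 96.4 to 323 CPM (median 107) with imiquimod, and at 76.7, 64.2, 64.0, 113 and 47.6 CPM in water colon and 54.9 to 93.5 CPM (median 69.2) with DSS. Imiquimod brought all 6 skin libraries below the controls, and the colon groups overlapped. The change was -2.33 ± 0.444 in skin (adjusted p = 0.000842) and -0.03 ± 0.180 in colon (adjusted p = 0.903), with an interaction adjusted p of 0.000412. Fa2h, which hydroxylates fatty acids of sphingolipids, changed by -2.70 ± 0.484 and -0.02 ± 0.363 (interaction adjusted p = 0.00145). Of 24 lipid and cholesterol synthesis genes tested in both tissues 3 fell in skin only, a class that held 3.4% of all genes. The list's medians were -0.07 and 0.01. Its members moved both ways in skin, where 7 of 25 rose and 7 fell, against 15.5% and 17.5% of all genes. Without skin water replicate 1 or 3 the number that rose was 3.

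Interferon-stimulated genes rose in colon and not in skin. Of 22 type I interferon-stimulated genes 15 rose in colon, 14 of them in the class of colon only (background 6.89%). In skin edgeR called 0 of them, with 1 at an unadjusted p under 0.05, and DESeq2 and limma also called 0. When 1 library was left out, 0 to 3 of them fell in skin in edgeR. Medians were -0.25 and 1.51. Without skin water replicate 3 that class held 7 of them, and without colon DSS replicate 6 and water replicate 4 the number that rose in colon was 17. Of 20 interferon gamma and antigen presentation genes tested in colon all 20 rose, 19 of 20 without that pair of libraries, and in skin 1 of 19 rose.

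Zbp1, an interferon-induced sensor of Z-form nucleic acids, was at 5.07, 3.64 and 11.5 CPM in water skin and 4.87 to 5.93 CPM (median 5.47) with imiquimod. It was at 6.11, 5.46, 9.35, 13.4 and 11.9 CPM in water colon and 23.8 to 123 CPM (median 75.6) with DSS. The imiquimod libraries lay within the range of their controls, and all DSS libraries lay above theirs. The change was -0.31 ± 0.285 in skin (adjusted p = 0.409) and 2.94 ± 0.451 in colon (adjusted p = 2.78e-05), with an interaction of -3.22 ± 0.554 (adjusted p = 3.80e-05). Nlrc5, the transactivator of MHC class I genes, changed by -0.18 ± 0.145 and 3.71 ± 0.5678 (interaction adjusted p = 5.99e-06), from 49.8 to 79.7 CPM in water skin and 2.51 to 5.99 CPM in water colon. Iigp1, an interferon-inducible GTPase, changed by -0.26 ± 0.428 and 4.21 ± 0.835 (interaction adjusted p = 0.000515).

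Cxcl9, a chemokine for T cells that interferon gamma induces, is the gene of this class for which a promoter is printed, since it holds matches to both motifs, while the Cxcl2 promoter above holds the NF-kB type alone. Capitals mark, from left to right, a GAAANNGAA match that begins 175 bases before the start and NF-kB type matches that begin 130 and 42 bases before it. The 250 bases come from chr5:92328080-92328329 and are written on the minus strand, which is that of the gene.
Cxcl9: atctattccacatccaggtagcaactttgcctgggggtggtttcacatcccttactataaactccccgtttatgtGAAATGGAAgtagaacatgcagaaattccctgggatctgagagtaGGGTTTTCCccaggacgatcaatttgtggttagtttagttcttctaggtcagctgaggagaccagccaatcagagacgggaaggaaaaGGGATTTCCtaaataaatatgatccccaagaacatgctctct
The interferon type motif was found in 7.49% of the promoters of all genes tested in both tissues, in 11 of 15 promoters of the type I interferon-stimulated genes, in 12.1% of those of genes higher in colon only, in 11.99% of those higher in both, in 10.1% of those lower in skin and higher in colon and in 6.44% of those higher in skin only. Among all 27025 RefSeq promoters of that length 8.57% held it and 6.89% held the NF-kB type.

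Cxcl9 itself was at 2.23, 2.12 and 10.5 CPM in water skin and 2.38 to 5.09 CPM (median 3.86) with imiquimod, and at 1.05, 0.450, 0.160, 1.48 and 0.749 CPM in water colon and 1.31 to 102 CPM (median 49.3) with DSS. The skin groups overlapped, and in colon the DSS libraries other than replicate 2 held at least 9.08 CPM. It changed by -0.37 ± 0.571 in skin (adjusted p = 0.640) and 5.94 ± 1.28 in colon (adjusted p = 0.00107), with an interaction of -6.28 ± 1.38 (adjusted p = 0.000766).

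**Figure D4:**
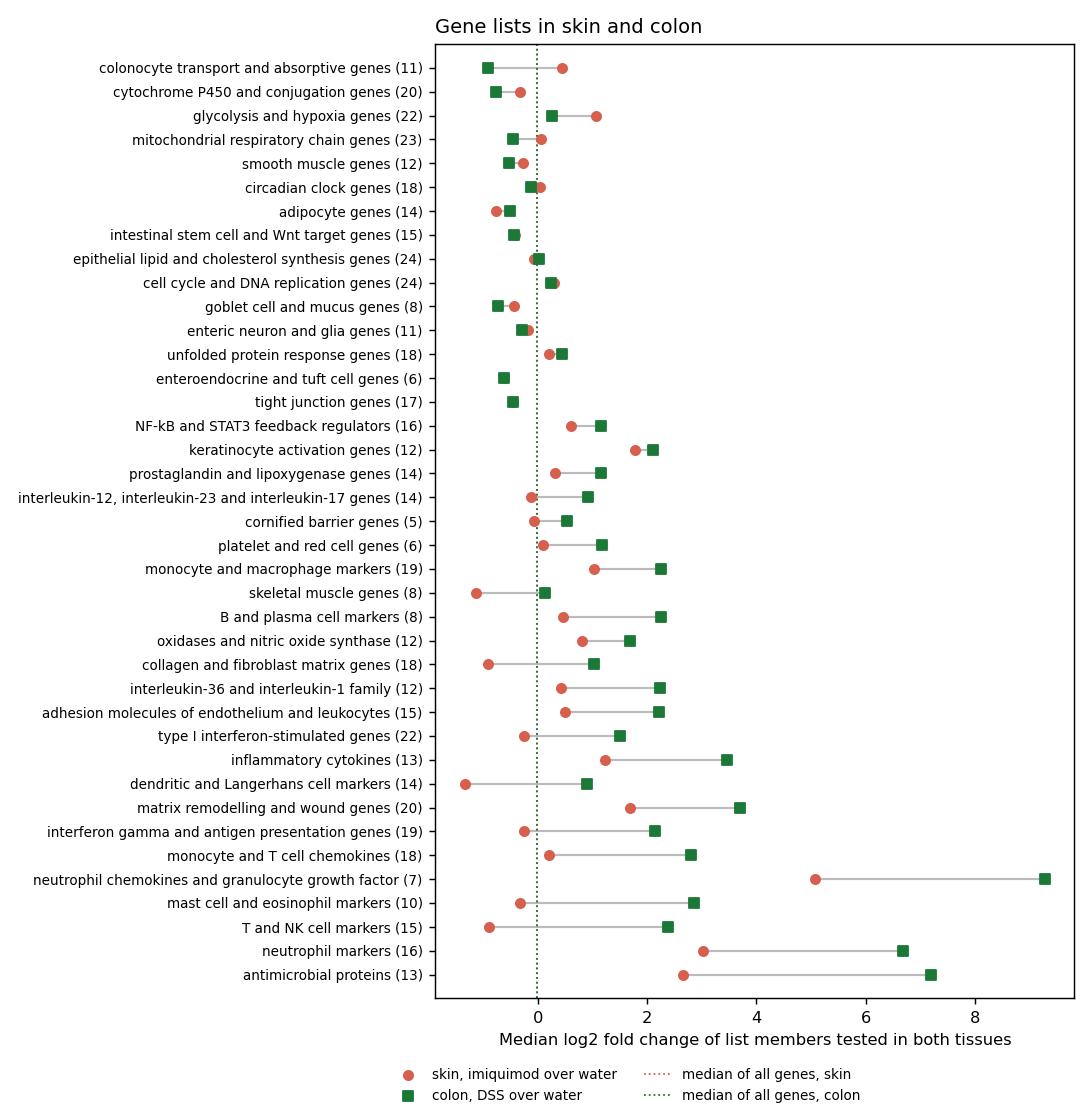
Median log2 fold change of each gene list in skin (circles) and colon (squares), ordered by the median interaction, with the number of members tested in both tissues in brackets; dotted lines mark the medians of all genes, which lie at -0.02 in both tissues. Neutrophil chemokines have the highest medians in both (5.07 and 9.29), and dendritic cell, T cell and collagen lists lie below 0 in skin and above 0 in colon.

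**Figure D5:**
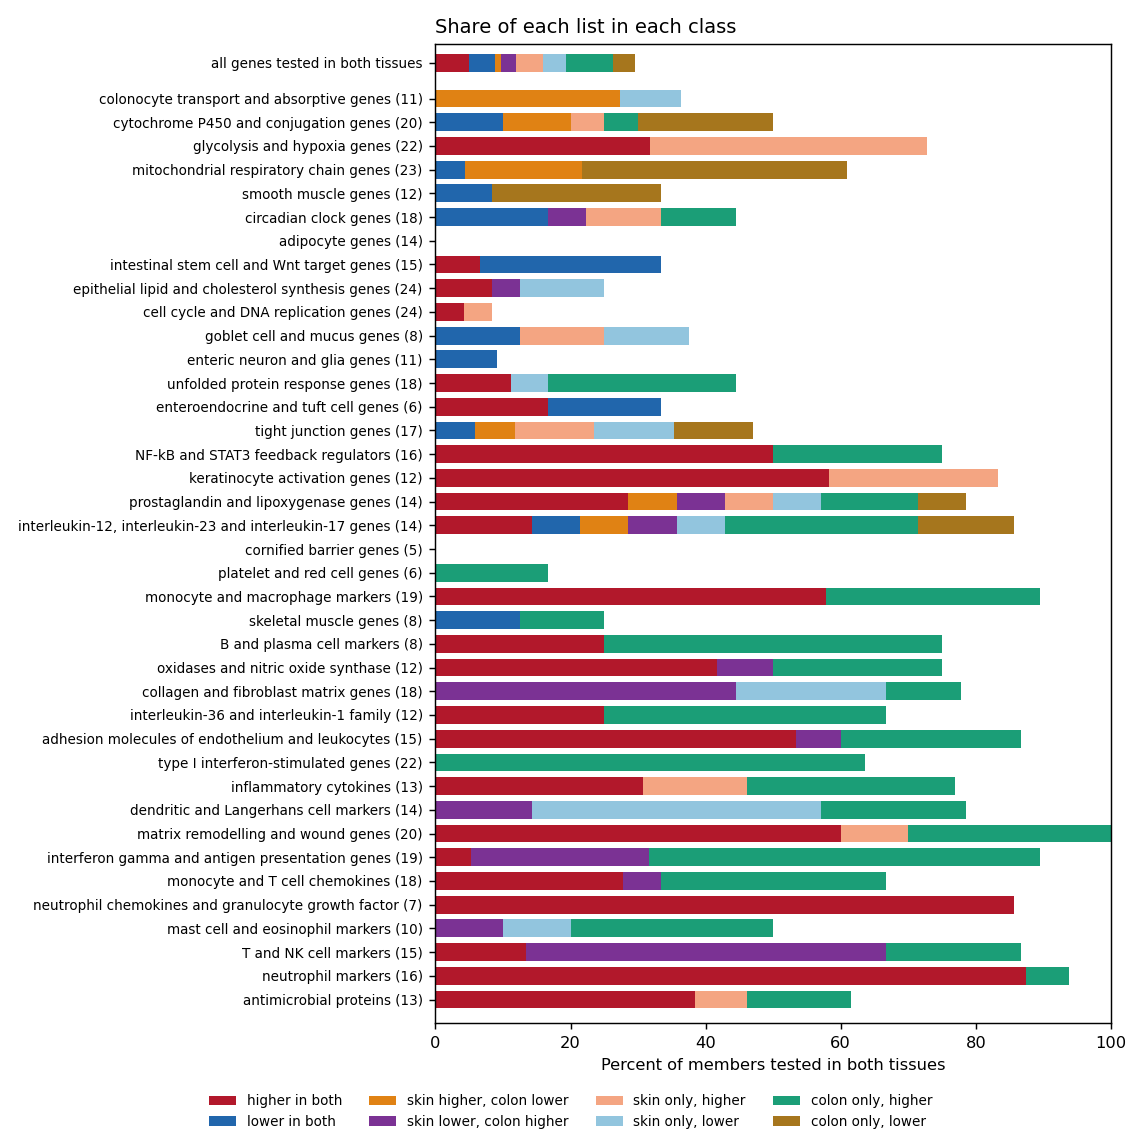
Percent of the members of each list that fall in each class, with all 14477 genes tested in both tissues at the top. Neutrophil markers are mostly higher in both (14 of 16), type I interferon-stimulated genes hold no class other than higher in colon only (14 of 22), and T cell markers have the widest band of skin lower, colon higher (8 of 15).

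Within the interleukin-1 and interleukin-36 family 3 of 12 genes tested in both tissues rose in both and 5 rose in colon only. Il1rl2, the receptor for interleukin-36, was at 17.5, 20.1 and 19.9 CPM in water skin and 18.5 to 29.1 CPM (median 21.1) with imiquimod, and at 0.309, 0.394, 0.374, 0.778 and 0.125 CPM in water colon and 0.637 to 3.41 CPM (median 1.32) with DSS. Skin held it at a steady level far above colon, where 2 of 6 DSS libraries fell within the range of the controls. It rose by 2.16 ± 0.508 in colon (adjusted p = 0.00226) against 0.18 ± 0.118 in skin (adjusted p = 0.251), with an interaction of -1.97 ± 0.492 (adjusted p = 0.00286). Whether the loci of the receptor or of its ligands are altered in this model, which would change what the counts of these mouse genes mean, is not given in the sources used here, and the antibody of the other groups is described as directed at the human receptor.

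Il1r2, the decoy receptor that binds interleukin-1 without signalling, changed by -0.14 ± 0.254 in skin and 5.97 ± 0.744 in colon (interaction adjusted p = 2.20e-07). Il1rl1, the interleukin-33 receptor, changed by -0.48 ± 0.304 and 4.92 ± 0.633 (interaction adjusted p = 5.11e-07). Il1rn, the antagonist of the interleukin-1 receptor, rose in colon (1.34 ± 0.359, adjusted p = 0.00632), had a skin change of 0.45 ± 0.275 (adjusted p = 0.207) and did not pass the interaction (adjusted p = 0.181). Without skin water replicate 2 its skin change was 0.81 and just passed (adjusted p = 0.0497). Il1f9, which encodes interleukin-36 gamma, stood at 0.651 to 3.32 CPM over all 20 libraries and was called in neither tissue (adjusted p = 0.185 in skin and 0.286 in colon), with the same limit as for the receptor. Il1f5, the gene of the interleukin-36 receptor antagonist itself, had mean levels of 533 CPM in water skin and 483 CPM with imiquimod, a change of -0.14 (adjusted p = 0.700), and held no count in colon. Counts of this transcript, after whose product the model is named, were thus present in skin. Whether the model lowers its level cannot be told, since no mice outside the model were compared. Counts also do not show whether the product works, and the labels do not say how the model was made.

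The interleukin-17 cytokines were low in every group. Il17f was at 0.490, 0.397 and 0.338 CPM in water skin and 2.03 to 8.41 CPM (median 3.67) with imiquimod, and at 0.0617, 0.0563, 0.107, 0.0707 and 0.0624 CPM in water colon and 0.119 to 5.33 CPM (median 0.689) with DSS. Treated libraries lay above controls in both tissues, narrowly so in colon. It rose by 3.45 ± 0.654 in skin (adjusted p = 0.000836) and 4.20 ± 0.890 in colon (adjusted p = 0.000896), and the interaction did not pass (adjusted p = 0.671).

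Il17a, its close relative, rose in colon (adjusted p = 0.000114) from 1 count in 5 water libraries to 234 counts in 6 DSS libraries, a ratio of pooled levels of 193 (exact 95% interval for counting error 34.3 to 7664). In skin it was at 0.545, 0.198 and 0.0563 CPM with water and 0.363 to 2.37 CPM (median 0.621) with imiquimod, overlapping groups whose change of 1.66 ± 0.777 did not pass (adjusted p = 0.101). The interaction adjusted p was 0.0211, and 0.182 without skin water replicate 1. Il22, which acts on epithelium and shares its T cell and innate sources, rose in both tissues (adjusted p = 0.0365 in skin and 0.00932 in colon). Its skin call was lost, at an adjusted p of 0.0624 to 0.120, without any 1 of the 3 water libraries or without imiquimod replicate 1 or 4. The colon ratio was 28.1 (7.48 to 237), from 2 counts with water to 68 with DSS.

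Il6, the acute-phase cytokine, was at 0.654, 0.265 and 0.282 CPM in water skin and 1.10 to 3.29 CPM (median 1.52) with imiquimod, and at 0.0617, 0.113, 0.0534, 0 and 0 CPM in water colon and 0.902 to 19.04 CPM (median 10.1) with DSS. All treated libraries exceeded their controls in both tissues, yet the skin change of 2.195 ± 0.938 did not pass in edgeR (adjusted p = 0.0744), whereas the colon change of 7.46 ± 0.990 did (adjusted p = 5.32e-06). The Il6 change in skin passed in DESeq2 (adjusted p = 0.0210) and in a fit of the compared groups alone (adjusted p = 0.0132). The interaction adjusted p was 0.00929, and 0.0646 without skin water replicate 1. Il11, a stromal cytokine of the same family, rose in colon only, by 6.46 ± 0.787 against 0.54 ± 0.369 in skin (interaction adjusted p = 2.70e-05).

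Genes that fell in colon only are represented by 3 leading members of that class. Dpyd, which begins the breakdown of pyrimidines, was at 4.03, 4.57 and 5.58 CPM in water skin and 2.03 to 5.67 CPM (median 3.11) with imiquimod, and at 25.3, 21.8, 25.2, 48.0 and 21.7 CPM in water colon and 1.67 to 9.10 CPM (median 3.82) with DSS. Skin groups overlapped, and all DSS libraries lay below all colon controls. The change was -0.43 ± 0.258 in skin (adjusted p = 0.202) and -2.62 ± 0.427 in colon (adjusted p = 5.62e-05), with an interaction of 2.22 ± 0.555 (adjusted p = 0.00288). Gsdmc, a gasdermin of epithelial cells, changed by 0.36 ± 0.267 and -2.11 ± 0.332 (interaction adjusted p = 4.65e-05), and Tppp3, a tubulin-binding protein, by -0.19 ± 0.282 and -2.42 ± 0.359 (interaction adjusted p = 0.000801).

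Some genes could be tested in 1 tissue only, because the other held too few counts, and for these no interaction exists. There were 868 such genes in skin, of which 111 rose and 269 fell, and 1254 in colon, of which 168 rose and 213 fell. Il23a, a subunit of interleukin-23, rose in skin by 2.76 ± 0.806 (adjusted p = 0.0128), from a mean of 0.378 CPM to 2.59 CPM, while colon means were 0.445 CPM with water and 0.427 CPM with DSS. Ifng, the gene of interferon gamma, rose in colon (adjusted p = 0.00684), from a mean of 0.0254 CPM to 2.18 CPM, and skin means were 0.0376 CPM with water and 0.0741 CPM with imiquimod. Reg3b, an antibacterial lectin of gut epithelium, had means of 9.46 CPM in water colon and 134 CPM with DSS, but its change of 3.85 ± 1.89 did not pass (adjusted p = 0.122).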

How the data were processed

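Messenger RNA of skin and colon was purified on oligo beads and made into strand-specific libraries, per the labels' protocols. The authors deposited 1 table of expected counts per tissue. RSEM and the genome mm10 are named in the submitters' processing notes, and versions, aligner and annotation are not given in the sources used here. Expected counts split reads that fit several genes, so near-identical genes are uncertain, and 16.7% of skin and 17.3% of colon values were not whole. A symbol was found for 24375 of the 24475 gene identifiers.

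After rounding, genes were tested in R 4.3.3 with edgeR 4.0.16: filterByExpr (minimum count 10, minimum total 15), TMM factors and quasi-likelihood F tests with Benjamini-Hochberg adjustment. All 23 skin libraries entered 1 fit, all 26 colon libraries another, and all 49 a joint fit of the genes passing both filters, which gave the interaction. The common biological coefficient of variation was 0.201 in the skin fit, 0.290 in the colon fit and 0.232 in the joint fit. The SE was obtained by dividing the size of a log2 fold change by the root of its F statistic. CPM use TMM-adjusted totals of the tissue's own fit, and log2 CPM a prior count of 2. That prior count does not enter the log2 fold changes, for which the default prior count of edgeR's fit was kept. The scripts were tested on simulated data. Alternatives used limma 3.58.1 and DESeq2 1.42.0.

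The genes and the 40 gene lists were chosen with earlier results of these data known. Genes named were drawn from the 8 leading genes of each class (by the smaller of both changes, or by the interaction where the other tissue changed by under 0.5, at a mean log2 CPM of at least 1), a set of cytokine and alarm genes, and leading members of each list, and the text prints part of them. Promoters came from RefSeq (GRCm38.p6). Exact 95% counting intervals cover counting error only.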

Additional observations from a re-analysis of the deposited data

Results flagged for a closer look

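Over the genes in the text 174 groups of 5 or 6 libraries were examined with Dixon's test. In 37 of them the gap of the highest or lowest library to the next, divided by the range, exceeded the 95% critical value. Chance gives about 1 group in 20 only for normally distributed values. The test was run on CPM, with some groups near absence, and the genes were chosen with earlier results known. The flag of Il17a in colon water rests on 1 count. The number of flagged groups can therefore not be read against that rate. Of the 37 groups colon water replicate 4 accounted for 10 and skin imiquimod replicate 5 for 8. Skin imiquimod replicate 1 and colon DSS replicate 5 accounted for 6 each.

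Skin imiquimod replicate 5 was highest of its group for neutrophil and alarm genes: Cxcl2 at 103 CPM, Il1b at 128 CPM, Lcn2 at 259 CPM, Ptgs2 at 47.4 CPM, Trem1 at 16.7 CPM, Osm at 10.2 CPM and Il1r2 at 55.3 CPM, and also for Car9 at 12.7 CPM. Skin imiquimod replicate 1 was highest for Vstm5 at 112 CPM, Nlrc5 at 80.8 CPM, Gsdmc at 408 CPM, Il17a at 2.37 CPM and Il1rl2 at 29.1 CPM and lowest for Cd79b at 1.02 CPM. Replicate 4 of that group was highest for the lipid enzymes Elovl6 at 323 CPM and Fa2h at 161 CPM, and replicate 2 for Flt3 at 2.91 CPM.

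Colon DSS replicate 5 was highest for Cxcl2 at 173 CPM, Ptgs2 at 561 CPM, Osm at 75.8 CPM, Il17f at 5.33 CPM, Il17a at 8.22 CPM and Il1rn at 366 CPM, and replicate 3 was lowest for Noct at 12.7 CPM. Colon water replicate 4, whose Hoxb13 level stood apart, was highest for Saa3 at 1.77 CPM, Gzma at 0.848 CPM, Ppara at 70.3 CPM, Arl4d at 20.9 CPM, Fa2h at 94.9 CPM, Il1r2 at 1.34 CPM, Il1rl1 at 5.80 CPM, Dpyd at 48.0 CPM and Il17a at 0.0707 CPM, and lowest for Il1rn at 13.9 CPM. In the same group replicate 3 was lowest for Cd74 at 166 CPM and highest for Il17f at 0.107 CPM, and replicate 5 was lowest for Igfbp5 at 93.9 CPM.

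The change differed between skin and colon, by the interaction test, for 3523 genes. Among them 125 were higher in skin and lower in colon, 324 lower in skin and higher in colon, 1075 changed in skin only and 1479 in colon only.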

How the results depend on the processing

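Of 30 alternatives, 29 were planned and 1 (leaving out colon DSS replicate 6 and colon water replicate 4) was chosen after seeing the data. These gave 1732 interaction values for the 58 genes in the text (25 for Il17a, 29 for Clec9a, Il17f and Il22, 30 for the others). Where the interaction passed in the main fit or in the alternative, 0 values had the opposite sign. Signs were not compared where it passed in neither, as for Gzma, whose difference changed sign without colon DSS replicate 6 and colon water replicate 4. The joint fit and the minimum change of 1 reused the main interaction values, so those could not reverse. Of the 58 genes 50 kept their class in each alternative that gave a value. When calls also had to reach a change of 1 on the log2 scale in either direction, there were 1554 genes called in skin, 2222 in colon and 1931 for the interaction, with 273 higher in both, 74 lower in both, 13 higher in skin and lower in colon, 137 lower in skin and higher in colon, 332 in skin only and 938 in colon only. Fitting the compared groups alone gave 2941 genes in colon, 2144 for the interaction, 217 lower in both, 42 higher in skin and lower in colon, 174 lower in skin and higher in colon and 840 in colon only. The joint fit for all comparisons gave 3260 genes in skin and 205 lower in skin and higher in colon. With imiquimod libraries 1 to 3 alone 362 genes were lower in both. With libraries 4 to 6 alone 71 were higher in skin and lower in colon, 208 lower in skin and higher in colon and 625 changed in skin only. The cause of these shifts was not tested.

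Leaving out 1 library at a time gave 2902 to 5061 genes in skin, 3990 to 5508 in colon, 2340 to 4181 for the interaction, 514 to 822 higher in both, 317 to 585 lower in both, 58 to 190 higher in skin and lower in colon, 180 to 358 lower in skin and higher in colon, 529 to 1264 in skin only and 1075 to 1801 in colon only. The lowest values for skin, the interaction, lower in both, both opposite classes and skin only came without skin water replicate 3. Under limma with sample weights the interactions of Il1b (adjusted p = 0.125), Saa3 (0.208), Osm (0.0616), Cxcl9 (0.0787) and Il17a (0.0643) did not pass, and under DESeq2 that of Trem1 did (0.0149). Under limma the skin calls of Cxcl2 (adjusted p = 0.0857), Cd74 (0.0596) and Il22 (0.0784) were lost. No paired analysis was possible because the labels give no replicate numbers shared between groups. Skin had 3 water libraries, which limits its calls, and changes against groups with few counts rest on the default prior count of edgeR's fit.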

Other observations

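Of 8 B and plasma cell genes tested in both tissues 2 rose in both and 4 in colon only (2 without skin water replicate 1). Cd79b, a chain of the B cell receptor complex and one of those that rose in both, was at 0.708, 0.529 and 0.901 CPM in water skin and 1.02 to 3.92 CPM (median 3.03) with imiquimod, and at 13.6, 12.7, 4.01, 2.69 and 10.2 CPM in water colon and 6.27 to 105 CPM (median 36.5) with DSS. The skin groups were separate, and DSS replicate 2 lay within the range of the colon controls. Cd79b rose by 1.98 ± 0.382 in skin (adjusted p = 0.000930) and 2.43 ± 0.507 in colon (adjusted p = 0.000782). Ms4a1, which encodes the B cell surface protein CD20, was at 0 to 0.175 CPM in imiquimod skin.

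Mcpt4, a chymase of connective tissue mast cells, was at 73.5, 50.9 and 52.3 CPM in water skin and 20.1 to 61.6 CPM (median 45.8) with imiquimod, where its change of -0.37 ± 0.216 did not pass (adjusted p = 0.187). In colon it was at 0.555, 0.113, 0.214, 0 and 0 CPM with water and 0.477 to 4.06 CPM (median 2.38) with DSS, and rose by 3.71 ± 0.730 (adjusted p = 0.000436). The groups overlapped in both tissues.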
